A study of Mus musculus with 4 samples.

Results

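The genes described here are 8 that serve the uptake of dying cells: Axl, Mertk, Cd36, Msr1, Marco and Lrp1, which encode receptors, and Gas6 and Mfge8, which encode bridging molecules. They were chosen by name, as every probe set whose only gene symbol in the platform's probe table is one of these, which gave 14 of 20380 single-gene probe sets and 8 of 12393 genes. The arrays hold RNA of 4 populations of myeloid cells sorted from the lamina propria (the layer of connective tissue beneath the gut lining) in C57BL/6J large intestine, with 1 Affymetrix 3' array per population. CX3CR1high macrophages were CD11c+ CD11b+ cells rich in CX3CR1, the receptor for fractalkine, while CX3CR1- cells were CD11c+ CD11b+ cells labelled as negative for it. CD11b+ cells were CD11c-, and the dendritic cells (DCs) were CD11chigh and CD11b-. The submitters' sample titles call the CD11b+ cells Mf, the short form also used in the title CX3CR1high Mf, and call the CX3CR1- cells CX3CR1- DC. All 4 populations share the strain and tissue, and no treatment or altered allele is named. The age and sex of the mice and the number pooled for an array are not given in the sources used here. The series title sets it on Spic, an ETS-family transcription factor, in CX3CR1high macrophages.

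Cells that die by apoptosis expose the lipid phosphatidylserine on their surface, and phagocytes take them up through receptors that bind it directly or through a soluble bridge. Gas6 bridges phosphatidylserine to the TAM receptor kinases Tyro3, Axl and Mertk, and Mfge8 bridges it to integrins that contain the alpha v subunit. Scavenger receptors such as Cd36, Msr1 and Marco bind oxidised lipids, modified lipoproteins and bacterial surfaces as well as dying cells, and Lrp1 binds calreticulin on them among many other ligands. Macrophages of the gut clear shed and dying cells with little inflammation, and DCs can carry material from dying epithelial cells to lymph nodes.

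Values are signals in linear intensity units, as deposited. No population has a replicate array, so no test, SD over samples or p-value is given, and every ratio is only as precise as 1 array on each side allows. Signals under a floor of 103, the pooled median signal of the non-control probe sets, were raised to it in ratios. Where 1 of both signals was under it, the ratio is a bound and reads at least N-fold, and differences of 2-fold or more are called. As a measure of spread, probe sets of the same gene were compared. Pooled over all genes with several measured sets, their log2 ratios had an SD of 0.31 to 0.52 over the 6 pairs of populations. This leaves out all differences between mice and sorts. The median signal was 88.5 on the DC array and 103 to 110.2 on the others. The 3' over 5' ratio of the Gapdh control probe sets, a sign of RNA that is less intact, was 0.791 in DCs, 1.08 in CX3CR1high macrophages, 2.17 in CD11b+ cells and 3.40 in CX3CR1- cells. For the Actb control probe sets it was 1.11, 1.68, 3.18 and 2.76 in the same order of populations, so CD11b+ cells stood highest there. Both control ratios move with the populations, and their part in the ratios below was not tested.

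The labels were checked against cell type markers. All 7 measured macrophage markers were at the floor or above in the 3 CD11b+ populations, with a summed signal of 129505 in CX3CR1high macrophages, 92293 in CD11b+ cells, 66544 in CX3CR1- cells and 14828 in DCs. All 8 measured DC markers were at the floor or above in DCs, where their sum was 42051, against 22213 in CX3CR1- cells, 7452 in CD11b+ cells and 5898 in CX3CR1high macrophages. The CX3CR1- cells thus carried signals of both lists. Most of their DC sum came from Cd24a (9830) and Ccr7 (7927). Of the DC markers with a ratio, 6 of 7 were higher in CX3CR1- cells than in CD11b+ cells by 2-fold or more and 0 lower. Irf8, however, was lowest in CX3CR1- cells (1619), and Xcr1 was under the floor there (42.1). Itgax, which encodes CD11c, stood at 1864 in CD11b+ cells, which were gated as CD11c-, and at 1826 in CX3CR1high macrophages. Cx3cr1 stood at 1499 in CX3CR1high macrophages, 638 in CD11b+ cells, 291 in CX3CR1- cells and 65.2 in DCs. It was thus above the floor in the cells gated as CX3CR1-. In this bulk RNA, fewer cells of a type and less RNA per cell cannot be told apart.

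The TAM receptors Mertk and Axl and their ligand Gas6 shared 1 order of levels, highest in CX3CR1high macrophages, then CD11b+ cells, then CX3CR1- cells, and lowest in DCs. Mertk, the TAM kinase best known for clearance by resting macrophages, had a signal of 894 in CX3CR1high macrophages, 429.6 in CD11b+ cells, 333 in CX3CR1- cells and 51.1 in DCs. Only the DC signal lay under the floor. The CX3CR1high macrophages stood 2.08-fold above CD11b+ cells, 2.68-fold above CX3CR1- cells and at least 8.69-fold above DCs. The CD11b+ and CX3CR1- cells were within 2-fold of each other (1.29-fold).

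Axl, a TAM kinase known to be induced by interferon and inflammation, had signals of 1644 in CX3CR1high macrophages, 1139 in CD11b+ cells, 996 in CX3CR1- cells and 196 in DCs. Its split lay between DCs and the rest. The 3 CD11b+ populations were 8.37-fold, 5.80-fold and 5.08-fold above DCs in the order given. Among themselves they were within 2-fold. The CD11b+ and CX3CR1- cells differed by 0.19 log2 units, less than the SD of 0.31 between probe sets. That step turns sign when the probe sets are averaged (at least 0.29 log2 units higher in CX3CR1- cells, with the averaged CD11b+ signal under the floor). Its other probe set, of the _x_at type that can match other transcripts, gave 9.11 to 27.7, under the floor on all 4 arrays, and so measured no difference. Tyro3, the remaining member of the kinase family, was under the floor on all 4 arrays, with signals from 3.65 to 22.2.

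Gas6 spanned the widest range of the 8 genes from its highest to its lowest population. Its signal was 5429 in CX3CR1high macrophages, 2336 in CD11b+ cells, 614 in CX3CR1- cells and 59.4 in DCs. Each step down this order passed 2-fold, by 2.32-fold, 3.81-fold and at least 5.97-fold. From the top of the order to the bottom the ratio was at least 52.8-fold, and 0.214% of the 7480 genes with a ratio were as far apart in that direction. Between the 2 CD11c+ CD11b+ populations, which differ in CX3CR1, Gas6 was 8.84-fold higher in CX3CR1high macrophages, a ratio that 0.281% of 7462 genes reached. Pros1, the other TAM ligand, followed the same order of populations with smaller steps, at 711, 524, 321 and 159.

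**Figure D1:**
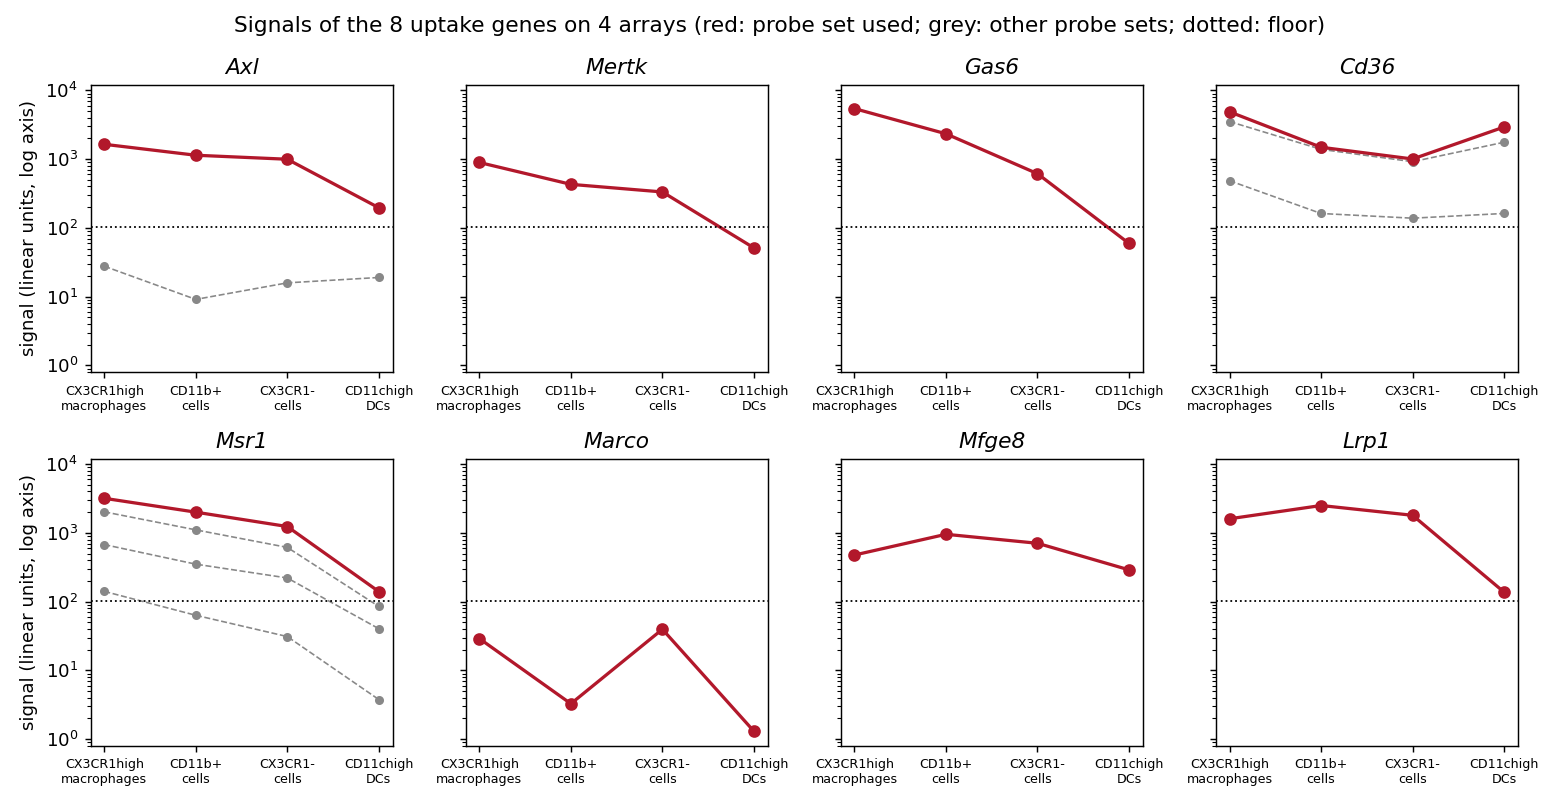
Signal of each probe set of the 8 genes (vertical axis, linear intensity units on a log axis) in the 4 populations, 1 array each. The red line is the probe set used for the gene, grey dashed lines are its other probe sets and the dotted line is the floor of 103. Axl, Mertk, Gas6 and Msr1 fall from left to right, Cd36 is high again in DCs, Mfge8 and Lrp1 peak in CD11b+ cells, and Marco lies under the floor throughout.

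Msr1, the class A scavenger receptor of macrophages, followed the order of the TAM genes in all 4 of its probe sets. The set used gave 3184 in CX3CR1high macrophages, 2001 in CD11b+ cells, 1237 in CX3CR1- cells and 140.1 in DCs. The CX3CR1high macrophages were thus 22.7-fold above DCs and 2.57-fold above CX3CR1- cells, and within 2-fold of CD11b+ cells (1.59-fold). The other sets gave 2022, 1106, 615 and 85.1, then 676, 351, 221 and 40.4, then 141, 63.3, 31.0 and 3.77 in the same order of populations. In the last of these only CX3CR1high macrophages passed the floor. The ratio of CX3CR1high macrophages over CX3CR1- cells was 2.57-fold, 3.29-fold and 3.06-fold in the 3 sets that measured both sides.

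Cd36, a class B scavenger receptor that binds oxidised phospholipids and takes up fatty acids, had another order. Its signal was 4876 in CX3CR1high macrophages, 2932 in DCs, 1488 in CD11b+ cells and 1004 in CX3CR1- cells. It was the only one of the 7 genes with a measured level in which DCs did not stand lowest. The CX3CR1high macrophages were 4.86-fold above CX3CR1- cells, 3.28-fold above CD11b+ cells and within 2-fold of DCs (1.66-fold). As background, Cd36 is known from the CD8-type DCs of the mouse spleen, relatives of the CD103-type DCs of the gut.

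The 3 probe sets of Cd36 gave the same order, but they differed in how far DCs stood above the lower populations. DCs over CX3CR1- cells came to 2.92-fold in the set used, 1.92-fold in the second and 1.17-fold in the third, so the call rests on 1 of 3 sets. DCs over CD11b+ cells came to 1.97-fold, 1.27-fold and 1.001-fold. The first was just short of the limit of 2-fold, and it passes the limit when the arrays are given equal medians. CX3CR1high macrophages over CX3CR1- cells held in all 3, at 4.86-fold, 3.83-fold and 3.51-fold, and over CD11b+ cells at 3.28-fold, 2.54-fold and 2.996-fold. CX3CR1high macrophages over DCs came to 1.66-fold, 1.998-fold and 2.99-fold, so the third set alone passed the limit, and the mean over the sets passed it too (1.10 log2 units). The set used is of the _a_at type, which matches several transcripts of the gene.

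Marco, a class A scavenger receptor of some tissue macrophages such as those of the lung and the splenic marginal zone, was under the floor in every population. Its signals were 39.6 in CX3CR1- cells, 29.0 in CX3CR1high macrophages, 3.27 in CD11b+ cells and 1.30 in DCs. No ratio was formed from them, and 7 of the 8 genes entered the comparisons.

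Mfge8 and Lrp1 differed from the TAM genes in standing highest in CD11b+ cells. Mfge8, also known as lactadherin, had signals of 953 in CD11b+ cells, 706 in CX3CR1- cells, 476 in CX3CR1high macrophages and 289.8 in DCs. Its levels formed a shallow gradient in which every neighbouring pair was within 2-fold and the ends were 3.29-fold apart. The CX3CR1high macrophages were 2.001-fold below CD11b+ cells, just past the limit, and the call ends with equal medians or with a pseudocount. The only probe set for Mfge8 is of the _a_at type.

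Lrp1, a very large endocytic receptor of the lipoprotein receptor family, had signals of 2500.1 in CD11b+ cells, 1802 in CX3CR1- cells, 1604 in CX3CR1high macrophages and 137 in DCs. As with Axl, its split lay between DCs and the rest. The 3 higher populations were within 2-fold of each other and 18.2-fold, 13.1-fold and 11.7-fold above DCs. The CX3CR1- cells and CX3CR1high macrophages differed by 0.17 log2 units, less than the SD of 0.42 between probe sets.

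**Figure D2:**
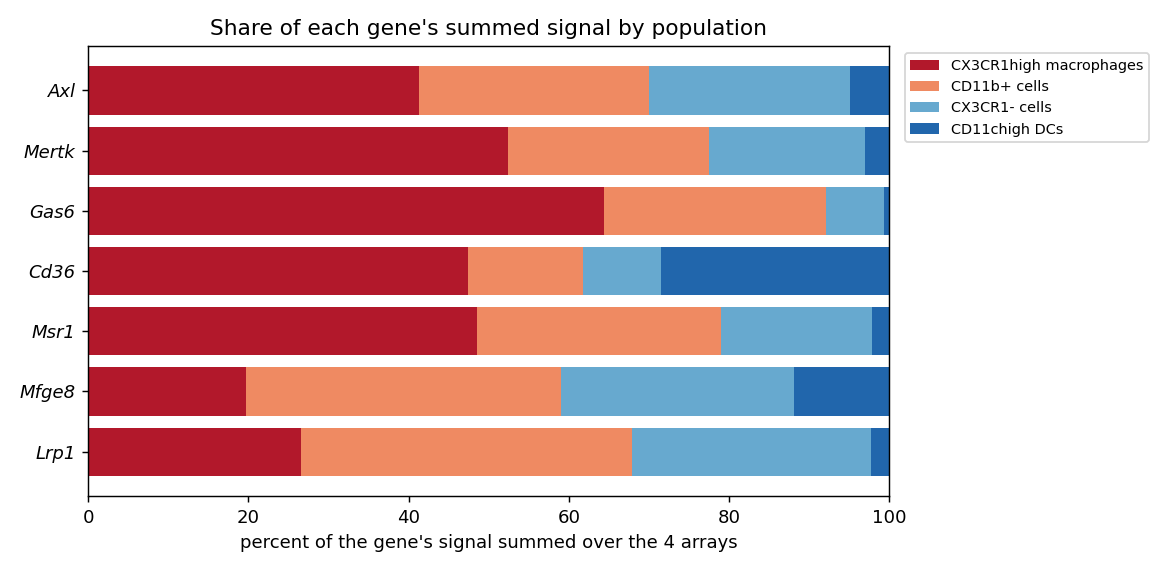
Share of each gene's signal, summed over the 4 arrays, that came from each population (horizontal axis, percent), for the 7 genes with a measured level. The CX3CR1high macrophages hold 64.3% of the Gas6 signal and 52.3% of the Mertk signal, CD11b+ cells 41.4% of the Lrp1 signal and 39.3% of the Mfge8 signal, and DCs 28.5% of the Cd36 signal but at most 11.9% of any other.

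The stretch before the start of transcription is shown for the TAM receptors and Gas6, which shared an order of levels, and for Cd36, which had another. The sequences are the 250 bases upstream of the gene start in RefSeq, build GRCm38.p6, written 5′ to 3′ in the direction of the gene, and 7 of the 8 genes had an entry in the table. Capitals mark GGGCGG, the GC box, and GAGGAA, a core bound by ETS-family factors, the family of Spic, on either strand, so that they also read as CCGCCC and TTCCTC.
Gas6, chr8:13494536-13494785, - strand: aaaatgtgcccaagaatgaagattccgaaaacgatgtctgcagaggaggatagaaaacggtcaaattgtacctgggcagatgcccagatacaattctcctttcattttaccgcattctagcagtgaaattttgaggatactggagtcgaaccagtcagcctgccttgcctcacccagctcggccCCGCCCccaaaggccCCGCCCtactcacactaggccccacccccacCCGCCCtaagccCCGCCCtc
Mertk, chr2:128698665-128698914, + strand: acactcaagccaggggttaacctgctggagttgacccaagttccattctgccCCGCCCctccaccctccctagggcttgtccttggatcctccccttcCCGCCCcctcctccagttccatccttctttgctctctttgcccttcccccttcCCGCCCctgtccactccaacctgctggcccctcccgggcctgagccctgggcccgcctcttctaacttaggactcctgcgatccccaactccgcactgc
Axl, chr7:25788734-25788983, - strand: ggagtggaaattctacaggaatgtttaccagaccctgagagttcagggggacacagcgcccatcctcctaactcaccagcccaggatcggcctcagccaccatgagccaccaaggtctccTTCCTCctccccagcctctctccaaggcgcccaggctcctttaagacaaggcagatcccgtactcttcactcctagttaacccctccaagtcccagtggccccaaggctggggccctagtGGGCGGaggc
Cd36, chr5:17835897-17836146, - strand: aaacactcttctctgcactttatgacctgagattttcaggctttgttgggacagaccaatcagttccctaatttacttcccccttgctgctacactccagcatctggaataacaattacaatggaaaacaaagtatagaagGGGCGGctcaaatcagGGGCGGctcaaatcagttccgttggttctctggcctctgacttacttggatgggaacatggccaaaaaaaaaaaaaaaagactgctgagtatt

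The GC box occurred 4 times upstream of Gas6, 3 times upstream of Mertk, 2 times upstream of Cd36 and once upstream of Axl. In all, 6 of 7 entries held it, against 32.7% of 32851 promoters of the same length. GAGGAA was found upstream of Axl, Mfge8 and Marco, in 3 of 7 entries against 23.3% of promoters, and TATAAA in 0 of 7 against 12.4%. The share of G and C was 43.2% for Cd36 and 54.8% to 63.6% for the other sequences printed. These matches are a description of letters and show no binding.

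Between CX3CR1high macrophages and CD11b+ cells, Cd36, Gas6 and Mertk were higher in CX3CR1high macrophages and Mfge8 was lower, so that 4 of 7 genes passed 2-fold. Over all genes with a ratio, 10.5% passed it in either direction, 4.66% higher and 5.83% lower. The median log2 ratio was 0.67 over the 7 genes and -0.02 over all 7512. Axl and Msr1 (higher in CX3CR1high macrophages) and Lrp1 (lower) were within 2-fold.

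Between CX3CR1high macrophages and CX3CR1- cells, Gas6, Cd36, Mertk and Msr1 were higher in CX3CR1high macrophages and none of the 7 genes was lower by 2-fold. Over all genes 8.56% were higher, 6.54% were lower and 15.1% passed in either direction. Median log2 ratios were 1.36 over the 7 genes and 0.02 over all genes. Axl, Mfge8 and Lrp1 were within 2-fold.

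Against DCs the genes differed most. In CX3CR1high macrophages 5 of 7 were higher and 0 lower, with Mfge8 (1.64-fold) within 2-fold and Cd36 (1.66-fold) within it in the set used but not in the mean over its sets, where 17.4% of all genes were higher, 10.2% lower and 27.5% either. In CD11b+ cells 6 of 7 were higher and 0 lower, where 17.0% of all genes were higher, 10.4% lower and 27.4% either. In CX3CR1- cells 6 of 7 were higher and Cd36 was lower, where 13.7% of all genes were higher, 8.70% lower and 22.4% either. Median log2 ratios over the 7 genes were 3.12, 2.54 and 2.34 in this order, against 0.02, 0.07 and 0.04 over all genes. These comparisons share the DC array.

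The DC array had a lower median than the others, by 0.31 log2 units against CX3CR1high macrophages. With equal medians, 42.1% of all calls of 2-fold or more were higher in CX3CR1high macrophages than in DCs, against 63.1% as deposited. The same share came to 41.6% against 62.0% for CD11b+ cells, and to 43.4% against 61.2% for CX3CR1- cells. Of the 7 genes, 5, 6 and 6 were higher than in DCs under this rescaling, as they were without it.

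The CX3CR1- cells and CD11b+ cells were the closest pair. Only Gas6 passed 2-fold, 3.81-fold lower in CX3CR1- cells, and 1 of 7 genes set against 8.74% of all genes (3.55% higher and 5.19% lower) is not a result about the group. All 7 genes had lower signals in CX3CR1- cells, with log2 ratios from -0.19 for Axl to -1.93 for Gas6. The median was -0.47 against -0.06 over all genes. Of all 7377 genes with a ratio, 37.3% were at least as far lower as Axl. The Axl step was under the SD of 0.31 between probe sets and turned sign when its sets were averaged. The shared direction is thus not read as a result about the group.

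**Figure D3:**
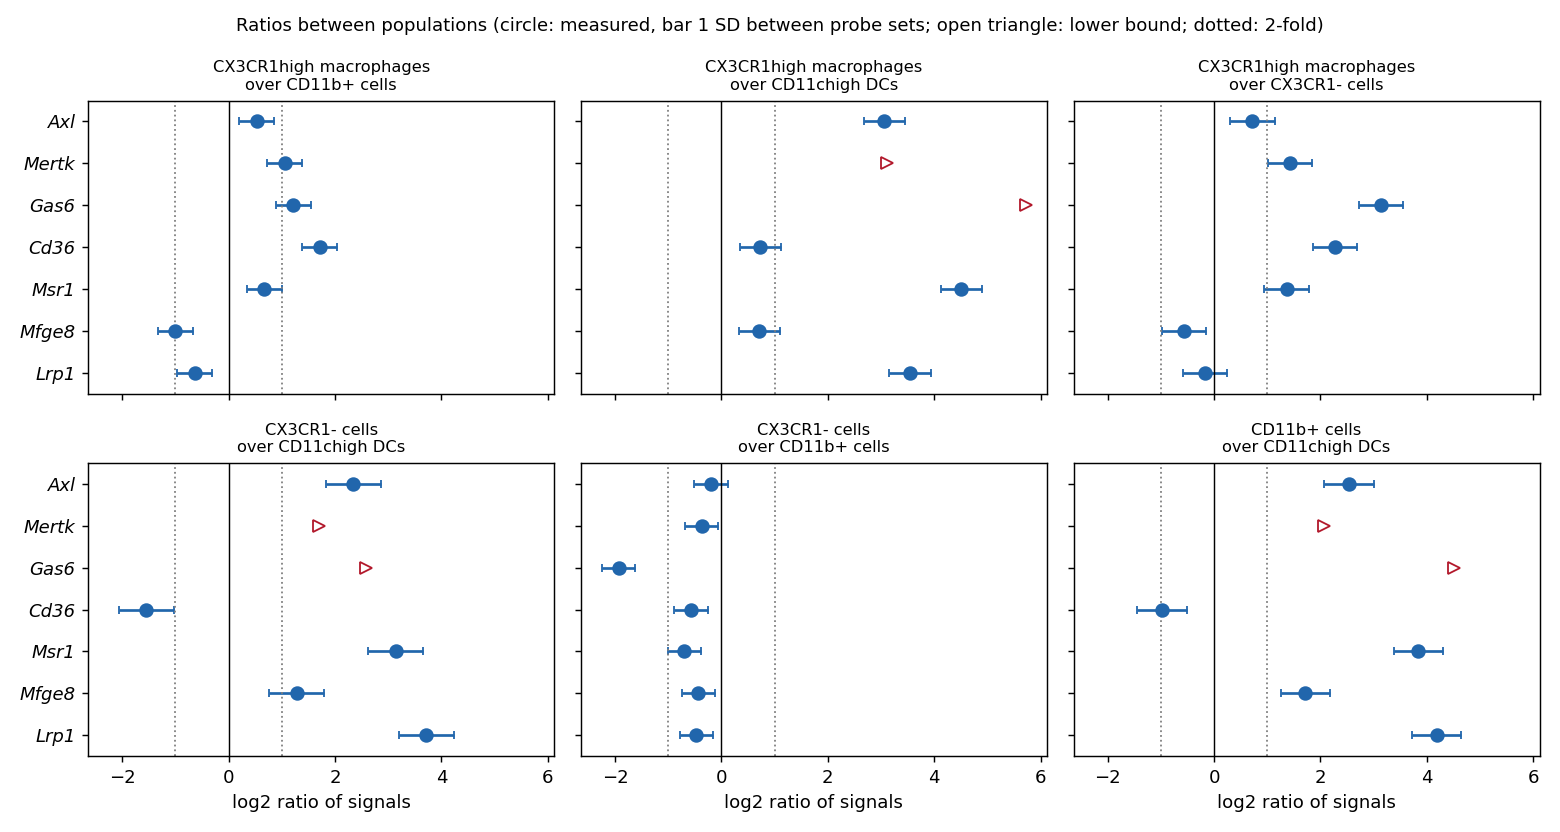
Log2 ratio of signals (horizontal axis) for the 7 genes with a measured level in each of the 6 pairs of populations. Blue circles are measured on both sides. Their bar is 1 SD between probe sets of the same gene, pooled over all genes with several sets, and is the same for every gene of a panel. Red open triangles are lower bounds with the DC signal at the floor, and dotted lines mark 2-fold. In the 3 panels against DCs most genes lie right of 2-fold and Cd36 does not, and in the panel of CX3CR1- over CD11b+ cells only Gas6 lies outside it.

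The neighbours in each gene's order were compared with these limits. Of 21 neighbouring pairs with a ratio, 8 were 2-fold or more apart, 11 were under 2-fold but above 1 SD between probe sets, and 2 were under 1 SD. The last were Axl in the CD11b+ and CX3CR1- cells and Lrp1 in CX3CR1- cells and CX3CR1high macrophages.

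Other genes of the pathway were taken as lists of known function, of which C1qa and Cd68 are also macrophage markers here, Cd24a a DC marker and Cx3cr1 a gate gene. For CX3CR1high macrophages, the counts below stand beside these shares of all genes. Against CD11b+ cells 4.66% were higher and 5.83% lower, against CX3CR1- cells 8.56% and 6.54%, and against DCs 17.4% and 10.2%. A list of receptors for phosphatidylserine and members of their gene families had 12 measured genes, not all of which are known to bind it. Of these, 6 had a ratio between CX3CR1high macrophages and CD11b+ cells, of which 2 were higher and 1 lower. Stab1, the scavenger receptor stabilin-1, was highest in CX3CR1high macrophages, at 6849 against 2714 in CD11b+ cells, 1204 in CX3CR1- cells and 92.6 in DCs. Trem2, a lipid-sensing receptor, was at 1344, 428, 209 and 3.81. Both kept the order of the TAM genes.

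Others went against it. Cd300lf, which binds phosphatidylserine and ceramide, was 12.7-fold lower in CX3CR1high macrophages than in CX3CR1- cells and 8.80-fold lower than in CD11b+ cells. Havcr2, which encodes TIM-3, was highest in DCs at 5316 and 7.27-fold lower in CX3CR1high macrophages. Timd2, Adgrb1, Stab2 and Ager, like Tyro3, were under the floor on all 4 arrays. Against DCs, 4 of 7 receptors with a ratio were higher in CX3CR1high macrophages and 1, Havcr2, was lower. The 4 were Stab1 (at least 66.6-fold), Trem2 (at least 13.1-fold), Cd300ld (at least 11.1-fold) and Cd300a (2.08-fold).

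Among the other bridging molecules, the complement genes C1qa, C1qb and C1qc, whose products bind dying cells, were 16.2-fold, 19.8-fold and 25.9-fold higher in CX3CR1high macrophages than in DCs. Over CX3CR1- cells they were 2.23-fold, 2.17-fold and 2.69-fold higher. Thbs1, which encodes thrombospondin-1 and links dying cells to Cd36, stood highest in CD11b+ cells at 15215, against 7048 in CX3CR1high macrophages, 5979 in CX3CR1- cells and 327 in DCs. Pltp, the phospholipid transfer protein, was 9.26-fold higher in CX3CR1high macrophages than in DCs. Anxa1, an annexin that binds phosphatidylserine, went the other way and was 2.30-fold higher in DCs than in CX3CR1high macrophages. Of the list, 6 of 9 with a ratio were higher in CX3CR1high macrophages than in DCs and 1 lower, and 4 of 9 higher and 0 lower than in CX3CR1- cells.

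The integrin subunits that pair to receive Mfge8 were highest in CX3CR1high macrophages. Itgb5 stood at 2469 in CX3CR1high macrophages, 1513 in CD11b+ cells, 1030.4 in CX3CR1- cells and 146 in DCs. Itgav stood at 5355, 2989, 3438 and 1962. Both were more than 2-fold higher in CX3CR1high macrophages than in DCs, by 16.9-fold and 2.73-fold, and Itgb3 was under the floor throughout.

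Among 10 further scavenger receptors, Cd163, the receptor for haptoglobin with hemoglobin, differed most. It was 9.15-fold higher in CX3CR1high macrophages than in CX3CR1- cells and 3.75-fold higher than in CD11b+ cells. Olr1, the lectin-like receptor for oxidised lipoprotein, was 5.90-fold lower than in CX3CR1- cells and 3.45-fold lower than in CD11b+ cells. Against DCs, 4 of 8 with a ratio were higher in CX3CR1high macrophages and 0 lower. These were Cd163 (at least 63.8-fold), Colec12 (at least 3.41-fold), Cd68 (2.98-fold) and Scarb2 (2.46-fold).

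Signalling and lipid export act behind the receptors. Of 14 measured genes of engulfment signalling, 3 were higher in CX3CR1high macrophages than in DCs and 0 lower, a share near the 17.4% of all genes that were higher there. These were the lipid exporter Abca1 (27.6-fold), the Rac activator Dock1 (at least 3.70-fold) and the adaptor Crk (2.57-fold), with a median log2 ratio of 0.34 over the list. Between CX3CR1high macrophages and CD11b+ cells 0 were higher, and Abca7 was 2.15-fold lower. Elmo1, Elmo2, Dock2, Rac1, Rac2, Crkl, Calr and Vav1 were within 2-fold in all 6 pairs.

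Of the nuclear receptors that control uptake genes in macrophages, Nr1h3, which encodes the oxysterol receptor LXR alpha, read 324 in CX3CR1high macrophages, 315 in CD11b+ cells, 227 in CX3CR1- cells and 82.6 in DCs. The ratio over DCs was at least 3.15-fold. Pparg, a known activator of Cd36 in macrophages, stood at 124 and 135 in CX3CR1high macrophages and CD11b+ cells and was under the floor in CX3CR1- cells and DCs. Of 5 with a ratio in each case, 0 passed 2-fold against CD11b+ cells and 1 was higher than in DCs. Over all genes 10.5% passed 2-fold against CD11b+ cells and 17.4% were higher than in DCs. Neither count is thus a result about the list.

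The sheddase Adam17, which cuts Mertk from the surface, was 2.15-fold higher in CX3CR1high macrophages than in DCs. The TAM-induced inhibitor Socs3 was higher by the same ratio. Adam10 was within 2-fold, and so was Socs1, which went the other way and was 1.63-fold higher in DCs. In that list 2 of 4 with a ratio were higher and 0 lower, and against CD11b+ cells 0 of 4 passed 2-fold. Socs1 was also 2.08-fold higher in DCs than in CX3CR1- cells.

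Receptors for find-me and do-not-eat-me signals were read last. Sirpa, which encodes the receptor that reads CD47 as a signal against uptake, was at 3724 in CX3CR1high macrophages, 3873 in CD11b+ cells, 3488 in CX3CR1- cells and 359 in DCs. Cd47 went the other way, 2.13-fold higher in DCs than in CX3CR1high macrophages, as did Cd24a (8.36-fold). Against DCs 3 of 7 with a ratio were higher and 2 lower, and 1 of the 3 was Cx3cr1. S1pr1, a receptor for the find-me lipid sphingosine-1-phosphate, was at least 2.80-fold higher.

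The genes with the most similar pattern were sought over the 4 arrays, by the root mean square difference of log2 signals after each gene's own mean was taken off, among 4717 genes. Gas6 lay closest to Lyve1 (0.22) and Ccl2 (0.27), Mertk to Cln8 (0.06) and Ccrl2 (0.08), and Axl to Tmem176a (0.04) and Cxcl2 (0.08). Msr1 lay closest to Ctsd (0.06) and Fcgr3 (0.08), and Lrp1 to Cebpb (0.17) and Ccl6 (0.20). Lyve1, a receptor for hyaluronan, had signals of 5416, 1725, 455 and 51.6 in the order of Gas6. Cd36 had Snx2 (0.24) and Acot13 (0.26) as its nearest. With 4 arrays many genes share such a pattern, and likeness describes these arrays only.

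Markers of other cells moved with some of these differences. Fibroblasts, which are known to express Gas6, Axl, Lrp1 and Mfge8, had 9 measured markers with a summed signal of 73565 in CD11b+ cells, 25776 in CX3CR1- cells, 18287 in CX3CR1high macrophages and 5809 in DCs. This is the order of Mfge8 and Lrp1, and all 9 were at the floor or above in the 3 CD11b+ populations and 8 in DCs. The part of fibroblast RNA in the signals of Mfge8, Lrp1, Gas6 and Axl was not tested.

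Enterocytes and endothelium are known to express Cd36. The 11 measured epithelial markers summed to 26005 in CX3CR1high macrophages, 7712 in CX3CR1- cells, 4682 in DCs and 3069.9 in CD11b+ cells, with all 11 at the floor or above in the first and 8 in each of the others. The 8 endothelial markers summed to 2167, 1441, 981 and 1552 in the same order, with 7, 5, 2 and 6 at the floor or above. Both sums stood highest in CX3CR1high macrophages, as Cd36 did. In DCs, which stood next for Cd36, the endothelial sum was lowest and the epithelial sum was below that of CX3CR1- cells. Single markers also peaked elsewhere, Cdh1 and Cldn5 in CX3CR1- cells, Tek in CD11b+ cells and Vwf in DCs. The part of epithelial and endothelial RNA in the Cd36 signal was not tested.

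Blood cell markers followed other orders. Monocyte markers, 5 measured, summed to 38104 in CD11b+ cells, 19305 in CX3CR1high macrophages, 11829.7 in DCs and 7074 in CX3CR1- cells. Most of the sum came from F13a1 (15238) in CX3CR1high macrophages and from Plac8 (11062) in DCs. Ccr2 was 2.80-fold lower in CX3CR1high macrophages than in CX3CR1- cells, while Plac8 (1.46-fold lower) and Vcan (1.42-fold lower) were within 2-fold. Chil3 (at least 7.75-fold) and F13a1 (8.01-fold) were higher. Neutrophil markers, 7 measured, summed to 7821 in CD11b+ cells and to 234 to 1223 in the others. Nearly all of the CD11b+ sum came from S100a8 (4058) and S100a9 (3416), which read 651 and 454 in CX3CR1high macrophages, and Mpo was under the floor in every population. Eosinophil and mast cell markers, 8 measured, summed to 2557 in CD11b+ cells, 2122 in CX3CR1- cells, 399 in CX3CR1high macrophages and 282 in DCs. Most of it came from Hdc, the histamine-forming enzyme, at 2116 in CD11b+ cells and 1376 in CX3CR1- cells, and Siglecf, a lectin of eosinophils, read 544 in CX3CR1- and 203 in CD11b+ cells. Epx, Cpa3, Mcpt1 and Mcpt2 were under the floor in all 4. Lymphocyte markers, 8 measured, summed to 10414 to 34857, nearly all from the immunoglobulin joining chain gene Jchain, with Cd3e under the floor throughout. Smooth muscle markers, 6 measured, summed to 744 in DCs and to 3009 to 3441 in the others.

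**Figure D4:**
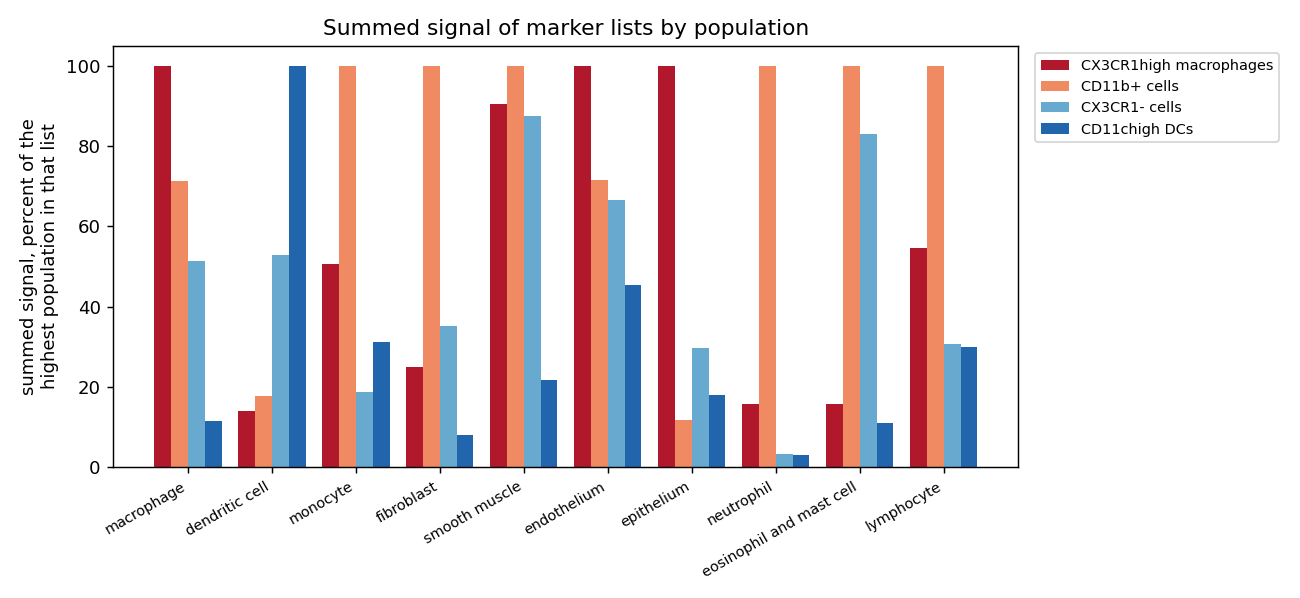
Summed signal of each marker list by population (vertical axis), as percent of the population with the highest sum in that list, 1 array each. The sum of macrophage markers runs in the order of the TAM genes, though Cd14, C1qa and Cd68 depart from it as single markers. The fibroblast sum peaks in CD11b+ cells, the epithelial sum in CX3CR1high macrophages and the DC sum in DCs.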

How the data were processed

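RNA of 4 sorted populations was hybridised to 1 Affymetrix 3' array each, after biotin labelling with a 3' in vitro transcription kit, per the labels' protocols. For each probe set the authors deposited 1 signal intensity on a linear scale, a MAS5 value per the submitters' processing notes, with no version given. The mean with 2% trimmed from each end was 500.3 on every array, so the arrays carried a common scaling, and no further normalization was applied.

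Of 22690 probe sets, 64 were controls, 20380 named 1 gene, 691 several and 1555 none, and those naming 1 gene were used. Entrez numbers were looked up in RefSeq (GRCm38.p6), where 99.9% were found and 0 symbols changed. Each gene was read from its probe set of highest mean log2 signal, preferring sets not ending in _x_at, and all sets of the 8 genes are given. The floor was the pooled 50th percentile. Promoters are RefSeq's, GRCm38.p6. Work was done in Python 3.11.15 with numpy 2.4.6 and pandas 2.3.3.

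The members and lists were chosen with earlier results of these data known. List genes named are members past 2-fold with up to the 4 largest differences in a list, and those the text needs for its counts or as known regulators of the 8 genes. The most similar genes are the 2 nearest to each of the 8 that spans 4-fold or more, leaving out Riken and predicted names and genes whose highest signal is under 4 times the floor. As alternatives, the floor was moved to the 25th or the 75th percentile or dropped, and the others were a pseudocount at the 25th percentile, equal medians, quantile normalization, averaged probe sets, no shared probe set types (_s_at, _x_at, _a_at) and a 4-fold limit. No samples were left out.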

Additional observations from a re-analysis of the deposited data

How the results depend on the processing

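No paired analysis was possible because each population has 1 array, and for the same reason no array could be left out within a population. Of 27 ratios at 2-fold or more among the 8 genes, 0 changed sign where an alternative left a ratio, and 27 stayed past 2-fold under quantile normalization. The number past 2-fold between CX3CR1- cells and DCs was 7 and fell to 4 of the 6 that keep a ratio with the floor at the 75th percentile, which bounds more low signals, while the share of all genes went from 22.4% to 18.4%. Under that floor the log2 ratio of Mertk in CX3CR1high macrophages over each other population was a bound of 0.98, and in CX3CR1- cells over DCs Gas6 had a bound of 0.44 and Mfge8 of 0.64. Between CX3CR1- and CD11b+ cells it was 1 and became 2 with no floor or with a pseudocount, where Marco, under the floor as reported, gains a ratio. With a limit of 4-fold the counts of 7 were 0 for CX3CR1high macrophages against CD11b+ cells (1.66% of all genes), 2 against CX3CR1- cells (2.64%) and 5 against DCs (8.01%). They were 4 for CX3CR1- cells against DCs (4.29%) and 0 against CD11b+ cells (1.06%), and 5 for CD11b+ cells against DCs (7.96%). The mean over probe sets took the log2 ratio of Axl between CX3CR1- cells and DCs from 2.34 to a bound of 0.29, since its other probe set lies under the floor. It took that of Cd36 from -1.55 to -0.90. For Axl it also took CX3CR1high macrophages over DCs from 3.07 to a bound of 1.05, and over CD11b+ cells from 0.53 to a bound of 1.05. It turned CX3CR1- over CD11b+ cells from -0.19 to a bound of 0.29. No ratio of CD11b+ cells over DCs was left, since both averaged Axl signals lay under the floor. For Cd36 in CX3CR1high macrophages over DCs it gave 1.10, against 0.73 as reported. Without shared probe set types the Cd36 ratio of CX3CR1- cells over DCs was -0.94, and Mfge8 had no probe set left. Signals near the floor limit what can be said of Mertk, Gas6 and Msr1 in DCs and of Marco everywhere.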
